A study of Homo sapiens with 8 samples.

Results

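Small nucleolar RNA host genes are transcribed as long precursors, and small nucleolar RNAs (snoRNAs) are cut from their introns. They were followed here in RD-ES and SK-N-MC, cell lines established from Ewing sarcoma (EwS). All genes named SNHG plus a number were taken from the deposited expression matrix, together with GAS5, ZFAS1, EPB41L4A-AS1, TAF1D and CCAR1. This gave 29 of the 60332 genes in the matrix. Of these, 25 averaged 1 FPKM or more across the 8 libraries and could be tested. FPKM is the number of reads of a gene normalized to transcript length and library size. SNHG28 (0.629 to 1.28 FPKM) and SNHG22 (0 to 1.74 FPKM) stayed under that mean, and SNHG18 and SNHG27 were listed at 0 in every library.

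The study asked what follows when the enhancer of LOXHD1, a gene switched on in EwS by the fusion protein EWSR1::FLI1, is silenced. RNA was sequenced from 2 control and 2 eKD2 libraries of each line. In eKD2 cells a Cas9 unable to cut DNA and joined to the KRAB repressor domain (dCas9-KRAB) was brought by a guide RNA to the flank of the GGAA repeat in that enhancer. By the labels the controls had received the dCas9-KRAB lentivirus without a guide, whereas the study's text calls them parental. The virus was used at a multiplicity of infection of 10, cells were kept in 1 µg/ml puromycin for 3 days, and every experiment used them within 5 passages. Each group was therefore a selected pool of cells and not a clone. The methods call the 2 libraries of a group biological duplicates, and the p-values rest on the spread within these pairs.

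Most host genes make no known protein. After splicing, the intron gives rise to the snoRNA and the joined exons leave as an RNA that is often destroyed quickly by nonsense-mediated decay, the pathway that removes transcripts with early stop codons. Box C/D snoRNAs guide ribose methylation and box H/ACA snoRNAs guide pseudouridylation, mainly on ribosomal RNA, so host genes are bound up with ribosome production and growth. Several of them, GAS5 among these, start with a run of pyrimidines like that of ribosomal protein mRNAs, which ties their translation and decay to growth signals. Libraries made by poly-A selection, as here, measure the spliced host transcript and not the snoRNA.

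RefSeq (GRCh38.p14, used for names and neighbours only and without regard to strand) matched all 29 genes by symbol and placed at least 1 snoRNA or the related scaRNA inside 27 of them. GAS5 held 11 (10 of box C/D and SNORA103), SNHG1 held 8 and SNHG5 held 2 of box C/D, and TAF1D held 2 of box C/D and 6 of box H/ACA. SNHG14, the long transcript across the imprinted Prader-Willi region, held 83. The annotation used for coordinates (GENCODE v44lift37 on GRCh37) carries models for only some of these. The sequences below are those it gives for the hosts on which the comparisons turn. In the box C/D snoRNAs the capitals mark box C (ATGATGA or GTGATGA within the first 15 bases) and box D (CTGA within the last 15), where these letters occur, and in the box H/ACA snoRNAs they mark the ACA next to the 3′ end.

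ZFAS1 (ENSG00000177410.12_3, chr20:47894715-47916137, plus strand) carries 3 box C/D snoRNAs, which lie in introns 1, 2 and 3 of its canonical transcript, at chr20:47895477-47895565, chr20:47896856-47896946 and chr20:47897220-47897309. The longest run of bases common to all 3 is cagatcgac, of 9 bases.
SNORD12C: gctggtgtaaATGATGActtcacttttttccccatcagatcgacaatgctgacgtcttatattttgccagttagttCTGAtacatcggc
SNORD12B: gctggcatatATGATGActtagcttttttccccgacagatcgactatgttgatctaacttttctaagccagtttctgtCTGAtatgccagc
SNORD12: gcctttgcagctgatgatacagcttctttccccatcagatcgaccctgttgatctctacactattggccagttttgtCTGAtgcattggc

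SNORD78 lies in intron 6 of GAS5 (ENSG00000234741.7_3, chr1:173827697-173838020, minus strand) at chr1:173834760-173834824, and SNORD60 in intron 1 of SNHG19 (ENSG00000260260.1_2, chr16:2204793-2205406, minus strand) at chr16:2205024-2205106. They are shown beside box H/ACA snoRNAs of 2 further hosts, so that both classes can be compared. SNORA13 lies in intron 1 of EPB41L4A-AS1 (chr5:111496223-111500515, plus strand) at chr5:111497182-111497314, and SNORA71A in intron 3 of SNHG17 (chr20:37048285-37064052, minus strand) at chr20:37055952-37056085.
SNORD78: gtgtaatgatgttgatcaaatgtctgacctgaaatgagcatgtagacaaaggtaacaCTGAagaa
SNORD60: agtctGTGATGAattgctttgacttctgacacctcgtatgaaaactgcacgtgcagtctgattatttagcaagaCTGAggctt
SNORA13: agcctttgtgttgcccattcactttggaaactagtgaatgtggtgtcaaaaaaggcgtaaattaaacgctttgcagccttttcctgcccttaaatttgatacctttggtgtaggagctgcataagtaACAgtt
SNORA71A: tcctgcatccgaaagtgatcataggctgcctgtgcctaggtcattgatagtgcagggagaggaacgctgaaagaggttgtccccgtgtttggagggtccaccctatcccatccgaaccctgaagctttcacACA
Of the 105 snoRNA models that GENCODE places inside the host genes and that the matrix lists, 81 were at 0 in every library, 18 were above 0 in some and 6 in all. Values up to 1e-06 FPKM, as 1 model had, were counted as 0. SNHG14 alone holds 72 of the 105 models, and most of these were at 0 in every library. The counts therefore describe mostly that locus.

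LOXHD1, the targeted gene, fell in eKD2 cells of both lines (log2 fold change -3.46 for RD-ES and -3.73 for SK-N-MC, limma adjusted p = 1.1e-04 and 3.7e-05). All 8 EwS markers checked, CD99 and NKX2-2 among them, averaged more than 1 FPKM, and NR0B1 was at 2.38 to 3.84 FPKM in RD-ES and 51.0 to 59.6 FPKM in SK-N-MC. Of 5 markers of other cells, CD3E was at 0 throughout and 3 reached at most 4.54 FPKM, but PTPRC, the leukocyte antigen CD45, was at 19.2 to 22.6 FPKM in every SK-N-MC library and at most 0.0173 FPKM in RD-ES. The part of such a marker in the contrast of the lines was not tested, and within SK-N-MC it did not differ between eKD2 and control past the threshold (limma adjusted p = 0.78). The numbers of reads are not given. From the steps between low FPKM values, which reflect whole reads, the depth of the libraries relative to SK-N-MC control 1 was 0.249 for RD-ES eKD2 1 and 0.431 to 0.831 for the others, which is a rough estimate.

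In control cells the host genes spanned more than 2 orders of magnitude. GAS5 was at 762 and 711 FPKM in RD-ES control and 705 and 659 FPKM in SK-N-MC control, and SNHG26 at 3.20 and 3.72 FPKM in RD-ES and 4.90 and 4.21 FPKM in SK-N-MC. GAS5, SNHG1, ZFAS1, SNHG5 and SNHG6 had the 5 highest means over all 8 libraries, controls and eKD2 together. The 29 genes together made up 0.494% and 0.548% of all FPKM in RD-ES control, and 0.526% and 0.551% in SK-N-MC control. Replicates of these genes lay closer together than those of other genes, with a median log2 SD of 0.103 against 0.143 over all genes tested.

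**Figure D1:**
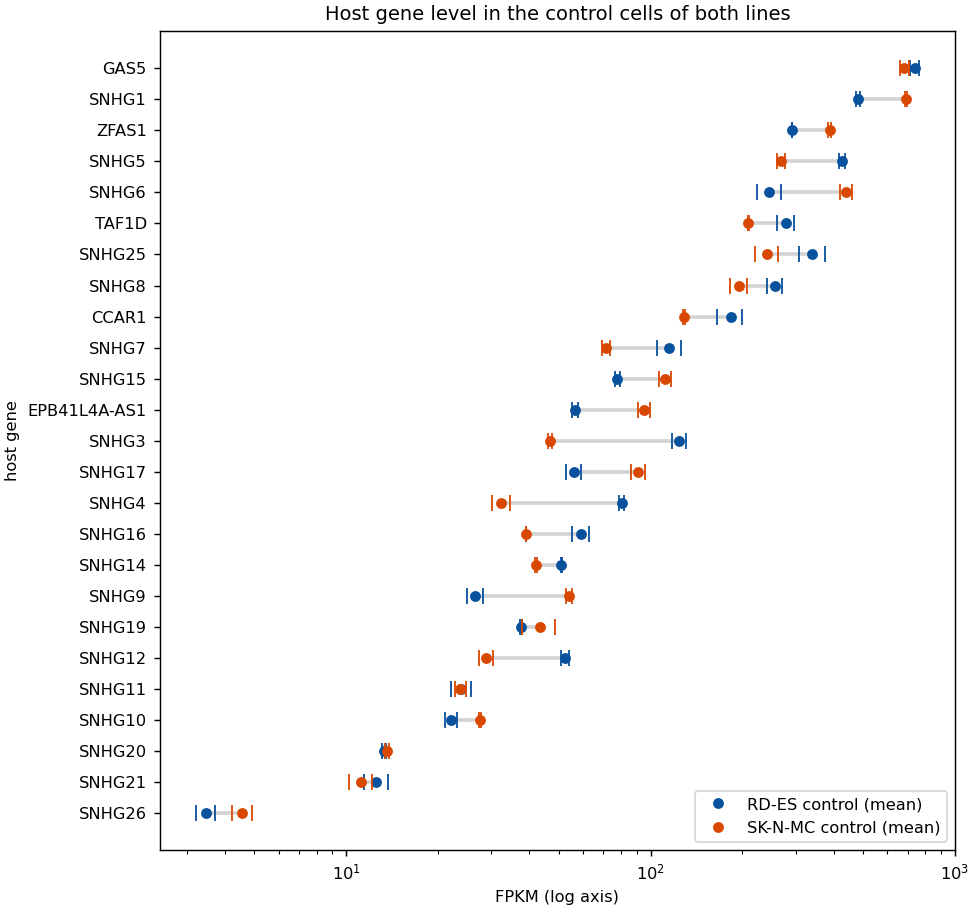
Level of the 25 host genes in control cells of RD-ES (blue) and SK-N-MC (orange), in FPKM on a log axis, ordered by the mean over all 8 libraries; dots are means and ticks the 2 libraries. SNHG3, SNHG4 and SNHG12 sit to the left in SK-N-MC, SNHG9 and SNHG6 to the right, and GAS5, SNHG20 and SNHG11 lie close together in both lines.

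Many host genes differed in level between the control cells of the lines, as did many of all genes tested. In SK-N-MC control against RD-ES control, 7 host genes were higher (28% of 25) and 10 lower (40%) with limma adjusted p under 0.05, against 31.4% higher and 26.4% lower among all 15175 genes tested. SNHG3, which hosts the SNORA73 RNAs that take part in ribosomal RNA processing, was at 131 and 118 FPKM in RD-ES control and 47.3 and 46.2 FPKM in SK-N-MC control, 2.66-fold lower in the latter (log2 difference -1.39, standard error 0.0993, limma adjusted p = 1.1e-04). SNHG4 was at 81.8 and 78.8 FPKM in RD-ES and 34.5 and 30.0 FPKM in SK-N-MC, 2.49-fold lower (log2 difference -1.29, limma adjusted p = 9.6e-05). Both genes were separated between the lines without overlap. SK-N-MC control lay wholly above RD-ES control in 10 host genes (40%) and wholly below in 12 (48%), against 43.2% and 36.7% of all genes. SNHG3 lies within RCC1 on the same strand, so reads of the stretches they share cannot be told apart. RCC1 was at 102 and 104 FPKM in RD-ES and 44.3 and 46.8 FPKM in SK-N-MC. The same limit holds for SNHG4, which shares stretches with MATR3 on the same strand. MATR3 was at 560 and 537 FPKM in RD-ES control and 478 and 459 FPKM in SK-N-MC control.

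SNHG9 was the gene furthest in the other direction, with 24.9 and 28.1 FPKM in RD-ES and 52.9 and 55.1 FPKM in SK-N-MC, 2.04-fold higher (log2 difference 1.00, standard error 0.118, limma adjusted p = 7.5e-04). SNHG6 was 1.79-fold, SNHG17 1.63-fold, SNHG1 1.44-fold, SNHG15 1.43-fold and ZFAS1 1.33-fold higher in SK-N-MC control. SNHG12 was 1.82-fold and SNHG5 1.58-fold lower. For these 7 the limma adjusted p lay between 2.7e-04 and 0.0015. GAS5, the host gene with the highest mean over all 8 libraries, did not pass the threshold (737 ± 35.7 FPKM in RD-ES and 682 ± 32.01 FPKM in SK-N-MC, SD, n = 2 each, limma adjusted p = 0.23). Scaling every library to the same median moved the median of all genes in this contrast from 0.07 to -0.04 on the log2 scale. With that scaling 7 host genes were higher and 11 lower, and among all genes 3983 were higher and 4838 lower in place of 4769 and 4008.

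In SK-N-MC, ZFAS1 rose in eKD2 cells and was the only host gene past the adjusted threshold. ZFAS1 is a non-coding RNA named for its place antisense to the start of ZNFX1. Control libraries gave 383 and 392 FPKM and eKD2 libraries gave 526 and 526 FPKM. The means were 388 ± 6.34 FPKM in control and 526 ± 0.00566 FPKM in eKD2 (SD, n = 2 each). The groups did not overlap, and the mean was 35.6% higher (log2 fold change 0.44, standard error 0.0451, limma adjusted p = 0.032). This is 1 of 25 host genes (4%) against 0.152% of all genes tested, and no host gene was lower, against 0.171%. The call was lost with any 1 of the 8 libraries left out (adjusted p 0.075 to 0.17), with SK-N-MC fitted alone (adjusted p = 0.22) or without the trend of the variance on expression (adjusted p = 0.15), whereas the log2 fold change stayed between 0.42 and 0.46 under every alternative. ZNFX1, the gene head to head with ZFAS1 that overlaps it, was at 4.81 and 5.09 FPKM in SK-N-MC control against 4.97 and 5.63 FPKM in eKD2 (log2 fold change 0.08, limma adjusted p = 0.80).

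GAS5, known as a growth arrest-specific RNA, lay next. It was at 705 and 659 FPKM in SK-N-MC control against 951 and 1015 FPKM in eKD2. The means were 682 ± 32.01 and 983 ± 45.7 FPKM (SD, n = 2 each), a value 44.1% higher in eKD2 with no overlap of the libraries (log2 fold change 0.53, standard error 0.0713, limma unadjusted p = 3e-04, adjusted p = 0.069). SNHG5 was at 276 and 261 FPKM in control against 357 and 365 FPKM in eKD2, 34.3% higher (log2 fold change 0.42, standard error 0.0623, limma unadjusted p = 4.7e-04, adjusted p = 0.085). Neither passed the adjusted threshold. By unadjusted p, ZFAS1, GAS5 and SNHG5 ranked 30, 66 and 84 among the 15175 genes.

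**Figure D2:**
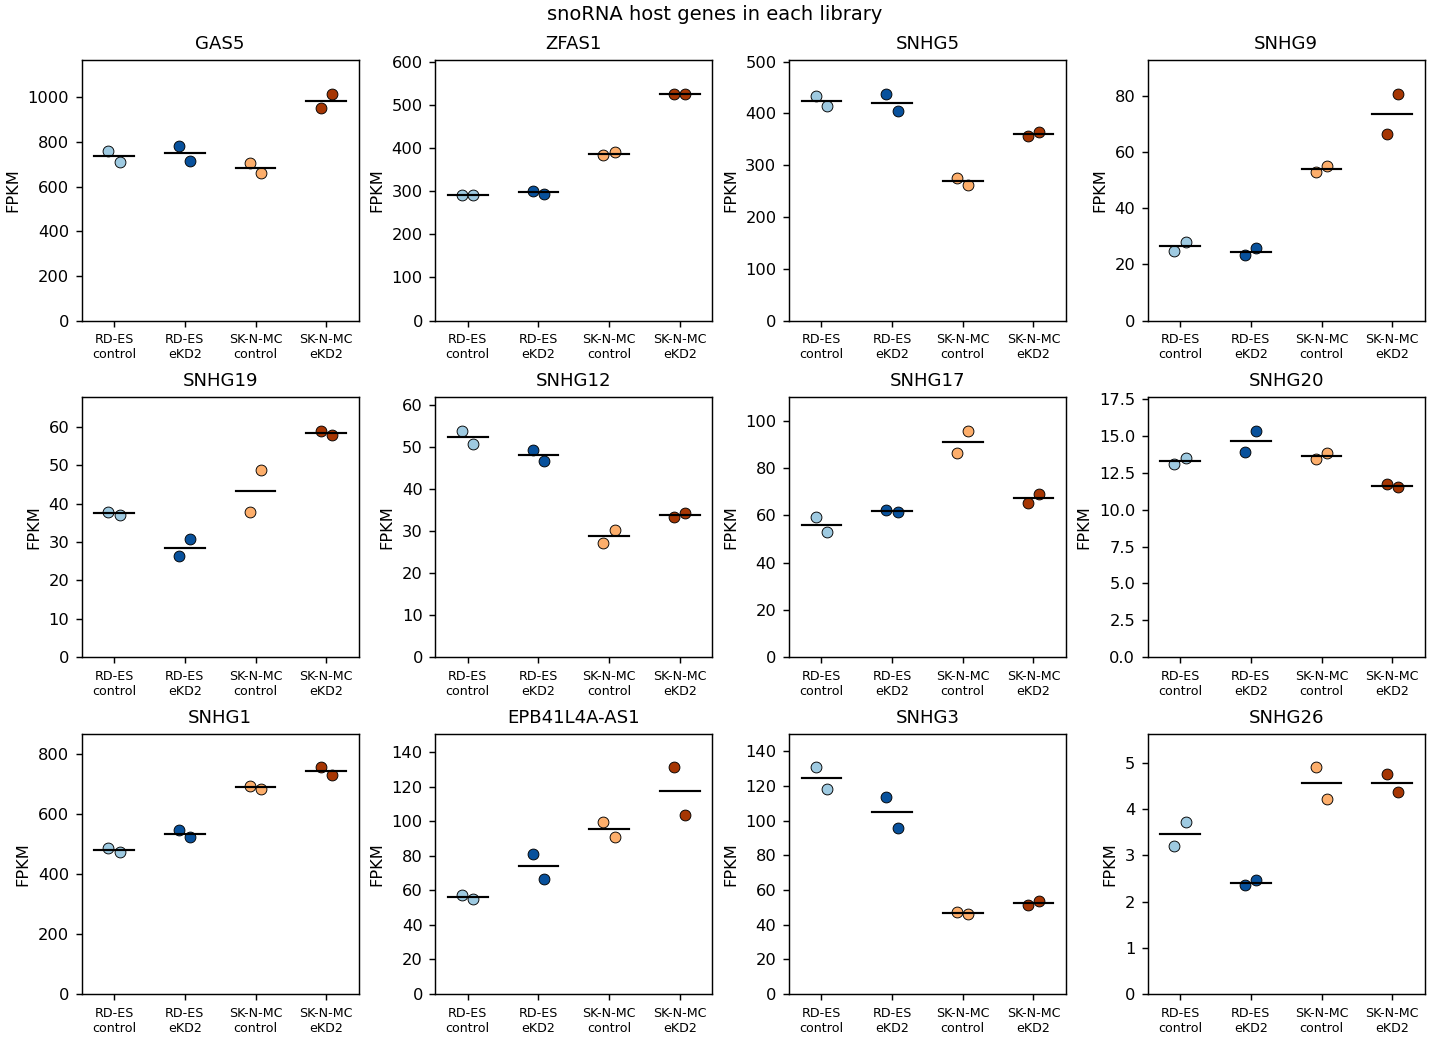
FPKM in each of the 8 libraries for the 12 host genes with an unadjusted p under 0.05 in RD-ES, in SK-N-MC or in the difference between the lines; dots are libraries, bars are means of 2, and each axis starts at 0. GAS5, ZFAS1 and SNHG5 lie close to their controls in RD-ES eKD2 and are higher in eKD2 of SK-N-MC, and SNHG17 and SNHG20 run the other way.

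At an unadjusted p under 0.05 (limma), 6 host genes were higher (24% of 25) and 2 lower (8%) in SK-N-MC eKD2, against 5.71% and 7.29% of all genes tested. The other 3 of the higher genes were SNHG9, SNHG19 and SNHG12. SNHG9 was at 52.9 and 55.1 FPKM in control against 66.5 and 80.7 FPKM in eKD2 (log2 fold change 0.43, standard error 0.118, adjusted p = 0.24). SNHG19, host of the SNORD60 shown above, was at 37.9 and 48.7 FPKM in control against 59.0 and 57.9 FPKM in eKD2 (log2 fold change 0.44, standard error 0.133, adjusted p = 0.28). SNHG12 was at 27.3 and 30.3 FPKM in control against 33.4 and 34.4 FPKM in eKD2 (log2 fold change 0.23, standard error 0.0803, adjusted p = 0.32). In all 3 genes both eKD2 libraries lay above both controls, by a gap close to the distance between replicates.

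The 2 lower genes were SNHG17 and SNHG20. SNHG17, whose introns hold SNORA71A and its 3 relatives, was at 86.3 and 95.8 FPKM in control against 65.4 and 69.3 FPKM in eKD2 (26.1% lower, log2 fold change -0.43, standard error 0.0869, limma unadjusted p = 0.0026, adjusted p = 0.17). SNHG20, which holds a scaRNA, was at 13.4 and 13.8 FPKM in control against 11.7 and 11.5 FPKM in eKD2 (log2 fold change -0.21, limma adjusted p = 0.36). The libraries of the groups did not overlap in either gene. SNHG20 shares stretches with SEC14L1 on the same strand, and reads of these cannot be told apart. SEC14L1 was at 73.3 and 66.2 FPKM in SK-N-MC control against 71.5 and 76.4 FPKM in eKD2.

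Most of the list had higher values in SK-N-MC eKD2. Of the 25 host genes, 21 (84%) had a positive log2 fold change, against 47.6% of all genes tested, and the median was 0.07 against -0.00493 over all genes. In 13 host genes (52%) both eKD2 libraries lay above both controls, and in 4 (16%) below, against 22.2% and 25.1% of all genes. Replicates of the host genes lay closer together (median log2 SD 0.103 against 0.143). Such genes separate more readily at the same change, so the shares are not fully alike. The median deviation of the host genes from the control mean was 0.108 in eKD2 library 1, with 18 genes above and 7 below, and 0.122 in eKD2 library 2, with 19 above and 6 below. Their share of all FPKM was 0.627% and 0.607% in eKD2 against 0.551% and 0.526% in control. This share is a sum, in which abundant genes such as GAS5 (mean 682 FPKM in control and 983 FPKM in eKD2) count most. It therefore says little about the list as a whole.

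In RD-ES no host gene passed the adjusted threshold (limma), where 0.264% of all genes tested were higher and 0.0791% lower. At an unadjusted p under 0.05, 2 host genes were higher (8%) and 3 lower (12%), against 8.49% and 3.79% of all genes. The balance among all genes depends on scaling. As deposited 1288 genes were higher and 575 lower, and after scaling to a common median 824 were higher and 1175 lower, with 0 and 4 host genes. Of the 25 host genes 13 were positive (52%) and 12 negative, against 56.2% positive among all genes tested. The median was 0.01 against 0.03 over all genes (-0.06 against -0.02 after median scaling). The 3 genes that led in SK-N-MC had small values here. GAS5 was at 762 and 711 FPKM in control against 783 and 716 FPKM in eKD2, ZFAS1 at 292 and 291 against 302 and 293 FPKM, and SNHG5 at 434 and 414 against 438 and 404 FPKM. Their log2 fold changes were 0.02 (95% confidence interval -0.15 to 0.20), 0.03 (-0.08 to 0.14) and -0.01 (-0.17 to 0.14), and each changes sign with another scaling of the libraries or with a library left out.

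The host genes with an unadjusted p under 0.05 in RD-ES were other ones, except for SNHG19. SNHG1, the host of 8 box C/D snoRNAs, was at 486 and 473 FPKM in control against 548 and 523 FPKM in eKD2 (log2 fold change 0.16, standard error 0.0474, limma unadjusted p = 0.015, adjusted p = 0.28). EPB41L4A-AS1, host of the SNORA13 shown above, was at 57.6 and 55.2 FPKM in control against 81.3 and 66.7 FPKM in eKD2 (log2 fold change 0.38, standard error 0.142, limma unadjusted p = 0.036, adjusted p = 0.37). Both were above their controls without overlap in RD-ES and also in SK-N-MC, where SNHG1 was at 696 and 684 FPKM in control against 756 and 732 FPKM in eKD2, and EPB41L4A-AS1 at 99.6 and 91.2 against 131 and 104 FPKM. There the log2 fold change was 0.11 for SNHG1 and 0.29 for EPB41L4A-AS1, with limma adjusted p of 0.41 and 0.46. ZFAS1 and SNHG14 also lay above their controls in both lines, and SNHG25 lay below its controls in both. The share of all genes with the same direction in both lines was not counted, so these names are description only.

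The 3 lower genes in RD-ES were SNHG3, SNHG19 and SNHG26. SNHG3 was at 131 and 118 FPKM in control against 114 and 95.9 FPKM in eKD2 (log2 fold change -0.25, standard error 0.0993, limma unadjusted p = 0.047, adjusted p = 0.40). RCC1, with which it shares reads, was at 102.5 and 103.7 FPKM in RD-ES control against 87.8 and 97.6 FPKM in eKD2 (log2 fold change -0.15, limma adjusted p = 0.54). SNHG19 was at 37.7 and 37.2 FPKM in control against 26.3 and 30.8 FPKM in eKD2 (log2 fold change -0.38, standard error 0.133, limma unadjusted p = 0.028, adjusted p = 0.34). SNHG26, host of SNORD93, was at 3.20 and 3.72 FPKM in control against 2.35 and 2.47 FPKM in eKD2 (log2 fold change -0.39, standard error 0.126, limma unadjusted p = 0.022, adjusted p = 0.31). In each of the 3 both eKD2 libraries lay below both controls, as they did in 6 host genes (24%) against 15.1% of all genes. In 7 host genes (28%) they lay above, against 24.2%.

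**Figure D3:**
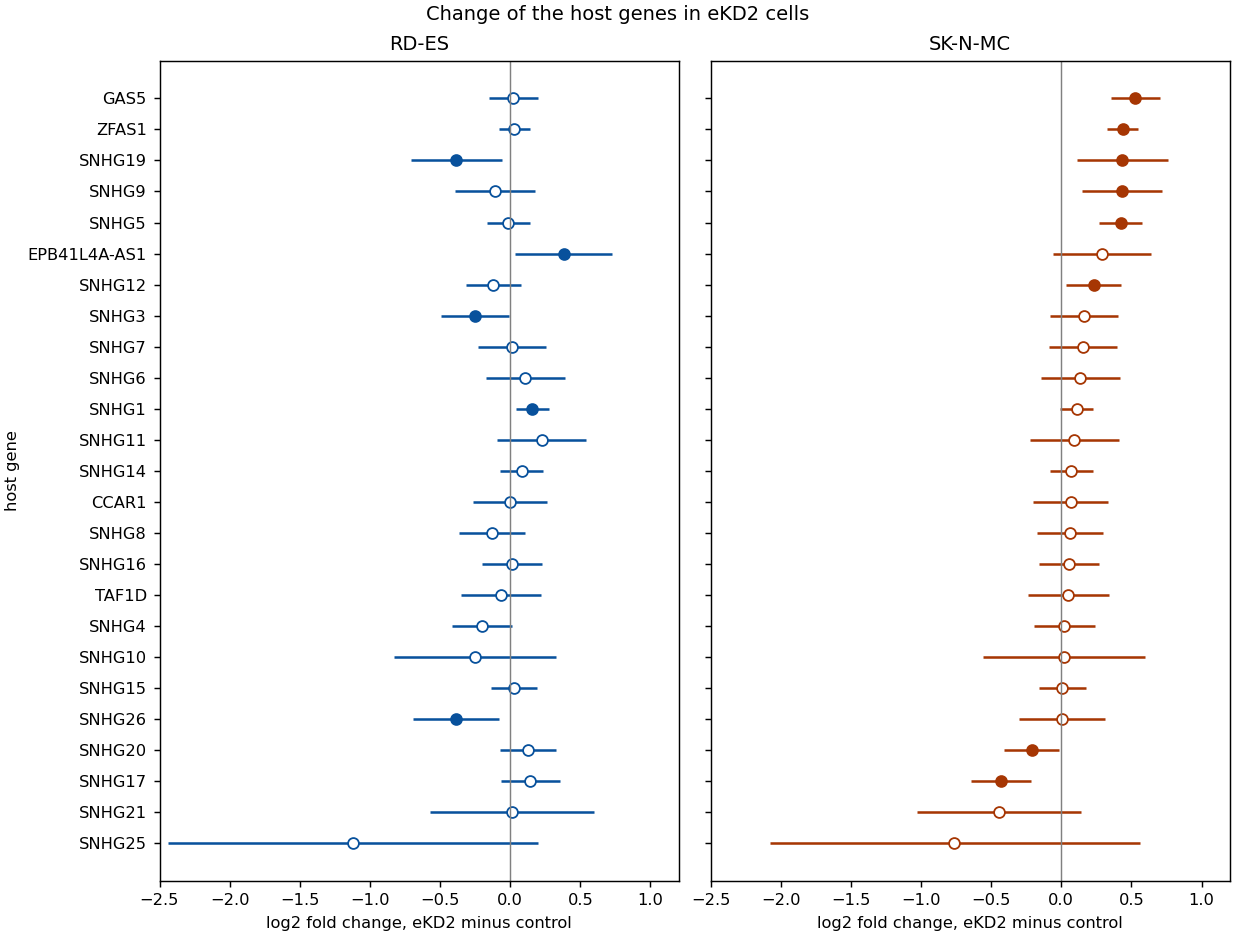
Log2 fold change of the 25 tested host genes, eKD2 minus control, in RD-ES (left) and SK-N-MC (right), ordered by the value in SK-N-MC; bars are 95% confidence intervals from limma and filled points have an unadjusted p under 0.05. In SK-N-MC 21 of 25 points lie to the right of 0 (84%, against 47.6% of all genes tested), and in RD-ES 13 do (52%, against 56.2%).

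To compare the lines, the change in RD-ES was subtracted from that in SK-N-MC. No host gene passed the adjusted threshold (limma), against 0.105% of all genes with a higher and 0.138% with a lower value in SK-N-MC. At an unadjusted p under 0.05, 7 host genes were higher (28%) and 2 lower (8%), against 4.38% and 9.16% of all genes. After median scaling the numbers were 8 and 1, with 1106 and 860 of all genes in place of 665 and 1390. ZFAS1 had the smallest p, with a difference of 0.41 (95% confidence interval 0.25 to 0.57, limma unadjusted p = 6.4e-04, adjusted p = 0.11). The difference was 0.50 for GAS5 (unadjusted p = 0.0024) and 0.44 for SNHG5 (unadjusted p = 0.0025), both with limma adjusted p = 0.17. SNHG17 differed in the opposite direction, by -0.57 (unadjusted p = 0.0034, limma adjusted p = 0.19). SNHG19 had the largest value, 0.82 (95% confidence interval 0.36 to 1.28, unadjusted p = 0.0047, limma adjusted p = 0.21). SNHG9 (0.54), SNHG12 (0.35), SNHG3 (0.41) and SNHG20 (-0.34) had limma adjusted p between 0.27 and 0.31. ZFAS1 was already higher in SK-N-MC control than in RD-ES control, and SNHG5 lower. In 5 host genes (20%), SNHG3, SNHG12, SNHG17, SNHG19 and SNHG20, eKD2 and control did not overlap in either line and the directions were opposite, as in 10.2% of all genes.

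The remaining abundant members did not pass the test in either line. SNHG6 was at 267, 224, 287 and 242 FPKM in RD-ES and 418, 459, 484 and 480.2 FPKM in SK-N-MC, in each line with the controls first. TAF1D, a protein-coding host and a subunit of the complex that starts RNA polymerase I on ribosomal DNA, was at 297 and 261 FPKM in RD-ES control against 293 and 242 FPKM in eKD2, and at 209.9 and 209 against 231 and 204 FPKM in SK-N-MC. CCAR1, a protein-coding coactivator that hosts SNORD98, was at 200.3 and 166 against 195 and 169.9 FPKM in RD-ES and at 130.2 and 128 against 137 and 134 FPKM in SK-N-MC. The log2 fold changes of these 3 genes lay between -0.07 and 0.14, with limma adjusted p of at least 0.69. SNHG8 was at 271 and 241 against 243 and 224 FPKM in RD-ES and at 182 and 207 against 209 and 197 FPKM in SK-N-MC, and SNHG7 at 105 and 126 against 112 and 119.7 FPKM in RD-ES and at 69.4 and 73.5 against 77.4 and 81.7 FPKM in SK-N-MC. The libraries of SNHG8 overlapped in both lines, and those of SNHG7 in RD-ES.

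SNHG25, a gene of 340 exonic bases around SNORD104, had the widest spread of the list. It was at 373 and 307 FPKM in RD-ES control against 288 and 83.5 FPKM in eKD2, and at 263 and 220.0 against 119.7 and 167 FPKM in SK-N-MC. The log2 fold changes of -1.12 (standard error 0.54, limma adjusted p = 0.47) and -0.76 (limma adjusted p = 0.61) were the lowest in each line but did not pass the test at either threshold, and the value of 83.5 FPKM in RD-ES eKD2 library 2 weighs on the former. The other 7 tested members were SNHG4, SNHG10, SNHG11, SNHG14, SNHG15, SNHG16 and SNHG21. In RD-ES their log2 fold changes ran from -0.25 to 0.22, with -0.45 to 0.09 for SK-N-MC. For SNHG14, which overlaps UBE3A and SNRPN, the values were 0.08 and 0.07 in the same order. UBE3A was at 0.39 for RD-ES (limma unadjusted p = 0.025, adjusted p = 0.33) and at -0.22 for SK-N-MC. SNRPN lies on the same strand as SNHG14, so reads of stretches they share cannot be told apart. Its SK-N-MC libraries gave 90.2 and 88.6 FPKM in control against 102 and 113 FPKM in eKD2. The log2 fold change of SNRPN was 0.26 there (limma unadjusted p = 0.0081, adjusted p = 0.22), with 0.008 for RD-ES.

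Grouped by the kind of snoRNA they hold, the host genes had similar medians in SK-N-MC eKD2. The 10 tested hosts of box C/D snoRNAs only had a median log2 fold change of 0.09, with 9 positive, and the 9 hosts of box H/ACA snoRNAs only had a median of 0.09, with 8 positive. The 6 mixed or scaRNA hosts had a median of 0.03, with 4 positive. In RD-ES the medians were 0.01, 0.01 and -0.03. GAS5 is counted as mixed, so the leading genes ZFAS1, GAS5 and SNHG5 fall into different classes although nearly all of their snoRNAs are of box C/D.

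The start of each canonical transcript was searched for a pyrimidine run like that of ribosomal protein genes, defined as a C within 5 bases of the annotated start followed by at least 5 more C or T on the transcribed strand. Of the 25 tested host genes, 3 had such a run (12%), GAS5, SNHG25 and TAF1D, against 11.4% of the genes that averaged 1 FPKM or more. The windows below cover 10 bases before the start and 20 from it on GRCh37, for the 3 genes that led in SK-N-MC, with the run in capitals. They lie at chr1:173837108-173837137 (minus strand), chr20:47895169-47895198 (plus strand) and chr6:86388447-86388476 (minus strand).
GAS5: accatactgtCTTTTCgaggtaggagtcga
ZFAS1: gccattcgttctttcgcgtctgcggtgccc
SNHG5: ggagctactggctgcgcacttcggtctttt
The annotated start decides this match, and a start used in these cells was not measured.

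Protein-coding genes that host snoRNAs, most of them ribosomal protein and translation factor genes, also had more higher than lower values in SK-N-MC. Of 38 tested, 12 were higher (31.6%) and 3 lower (7.89%) at an unadjusted p under 0.05 in SK-N-MC eKD2, against 5.71% and 7.29% of all genes, with a median of 0.09 (limma). In RD-ES 0 were higher and 2 lower, against 8.49% and 3.79% of all genes, with a median of -0.03. HSPA8, the constitutive HSC70 chaperone and host of the U14 snoRNAs, passed the adjusted threshold in both lines in opposite directions. It was at 2897 and 2895 FPKM in RD-ES control and fell to 1822 and 1938 FPKM in eKD2 (log2 fold change -0.62, limma adjusted p = 0.030). In SK-N-MC it was at 716 and 647 FPKM in control and rose to 1294 and 1384 FPKM in eKD2 (log2 fold change 0.97, limma adjusted p = 0.0065), and the difference between the lines passed as well (1.60, limma adjusted p = 0.0027). The call in RD-ES was lost under 12 of 16 alternatives (adjusted p 0.0093 to 0.50), that in SK-N-MC under 4 of 16 (up to 0.22) and that of the difference with the replicate number as a block (0.086), each with the direction kept. RPL5 was at 1307 and 1293 FPKM in SK-N-MC control against 1511 and 1506 FPKM in eKD2 (log2 fold change 0.21, limma adjusted p = 0.17), and EIF4A2 at 551 and 562 against 722 and 692 FPKM (log2 fold change 0.35, limma adjusted p = 0.16). WDR43, which acts in ribosome assembly, was at 121 and 138 FPKM in SK-N-MC control against 105 and 99.96 FPKM in eKD2 (log2 fold change -0.33, limma adjusted p = 0.21).

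The proteins that bind and assemble snoRNAs had mostly negative values in SK-N-MC. Of 21 tested, 0 were higher and 5 lower (23.8%) at an unadjusted p under 0.05 in SK-N-MC eKD2, against 5.71% and 7.29% of all genes, with a median of -0.11 and 4 positive values, and none had an adjusted p under 0.05 (limma). In RD-ES 0 were higher and 1 lower, against 8.49% and 3.79% of all genes, with a median of 0.02. NOP56, a core protein of box C/D particles and itself a snoRNA host, was at 414 and 438 FPKM in SK-N-MC control against 371 and 376 FPKM in eKD2 (log2 fold change -0.19, limma adjusted p = 0.22), and at 666 and 655 against 598 and 612 FPKM in RD-ES (-0.12, limma adjusted p = 0.39). RUVBL1, an ATPase of the assembly machinery, was at 189.7 and 194 against 166 and 171 FPKM in SK-N-MC (-0.19). There TGS1, an enzyme that modifies RNA caps, was at 50.8 and 51.9 against 42.2 and 41.7 FPKM (-0.29). NOLC1 was at 52.4 and 50.9 against 45.5 and 45.7 FPKM in SK-N-MC (-0.18). The limma adjusted p of these genes lay between 0.25 and 0.34.

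**Figure D4:**
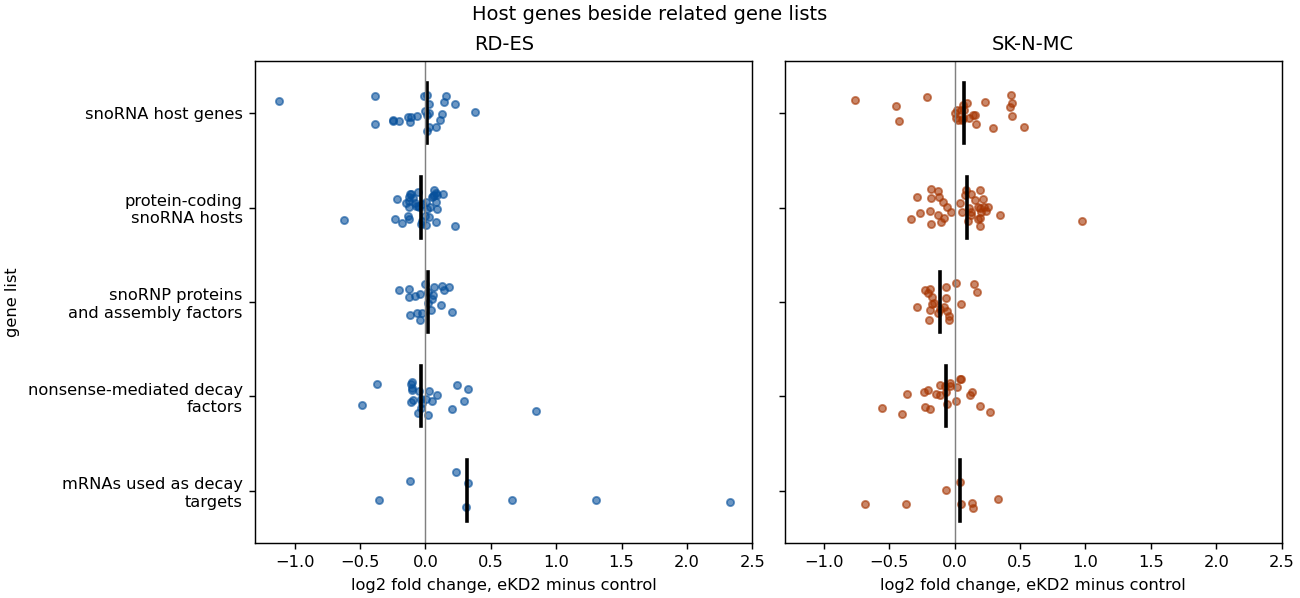
Log2 fold change, eKD2 minus control, of each tested gene in 5 lists in RD-ES (left) and SK-N-MC (right); dots are genes and the black bar is the median of the list. In SK-N-MC the medians of the host genes and of the protein-coding hosts lie above 0 (0.07 and 0.09) and those of the snoRNA-binding proteins and the decay factors below (-0.11 and -0.07).

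Factors of nonsense-mediated decay, the pathway that removes many spliced host transcripts, were measured beside the host genes. Of 23 tested, 0 were higher and 4 lower (17.4%) at an unadjusted p under 0.05 in SK-N-MC eKD2, against 5.71% and 7.29% of all genes, with a median of -0.07 (limma). In RD-ES 3 were higher and 0 lower, against 8.49% and 3.79% of all genes, with a median of -0.03. RNPS1, a protein of the exon junction complex periphery, was at 137 and 139 FPKM in SK-N-MC control and fell to 91.5 and 95.5 FPKM in eKD2 (log2 fold change -0.56, standard error 0.0558, limma adjusted p = 0.031), with 129 and 134 against 122 and 123 FPKM in RD-ES (-0.10, limma adjusted p = 0.54). The call was lost under 10 of 16 alternatives (adjusted p 0.020 to 0.19). RBM8A, of the exon junction core, was at 119.7 and 116 against 90.7 and 87.5 FPKM in SK-N-MC (log2 fold change -0.40, limma adjusted p = 0.15) and UPF2 at 11.5 and 11.9 against 9.12 and 8.58 FPKM (-0.36, limma adjusted p = 0.17). PNRC2 was at 87.4 and 65.6 FPKM in RD-ES control against 158 and 118 FPKM in eKD2 (0.84, limma adjusted p = 0.24).

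Of 8 protein-coding mRNAs commonly used as readouts of that decay, which also respond to stress, 4 were higher and 0 lower at an unadjusted p under 0.05 in RD-ES eKD2, against 8.49% and 3.79% of all genes, and 0 higher and 2 lower in SK-N-MC, against 5.71% and 7.29% (limma). ATF3 was at 11.1 and 8.82 FPKM in RD-ES control and rose to 52.3 and 55.1 FPKM in eKD2 (log2 fold change 2.33, limma adjusted p = 0.0012), and was at 58.4 and 61.8 against 37.9 and 36.2 FPKM in SK-N-MC (-0.68, limma adjusted p = 0.11). DDIT3 was at 40.4 and 43.1 FPKM in RD-ES control and rose to 99.2 and 110.3 FPKM in eKD2 (1.31, limma adjusted p = 0.0032), and was at 185 and 189.5 against 139 and 150.1 FPKM in SK-N-MC (log2 fold change -0.37, limma adjusted p = 0.17). The difference between the lines passed for both (limma adjusted p = 0.0017 and 0.0048), but with the replicate number as a block neither did (adjusted p 0.074 and 0.058). With RD-ES fitted alone neither call in RD-ES held (adjusted p 0.16 and 0.17), and that of ATF3 was also lost with the block (0.060). GADD45A (0.66, limma adjusted p = 0.13) and ATF4 (0.24, limma adjusted p = 0.24) were the other higher genes in RD-ES. The part of these genes in the values of the host genes was not tested.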

How the data were processed

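RNA of 8 libraries was sequenced after poly-A selection with a kit that does not mark strand. Reads (single-end, 75 bases) were mapped by the authors with STAR to GRCh37 (hg19 in the submitters' processing notes) and turned into FPKM per gene with cufflinks and cuffnorm. The deposited FPKM matrix was used as given. The 15175 genes that averaged 1 FPKM or more were compared as log2(FPKM + 1) with limma 3.58.1 in R 4.3.3 (lmFit, eBayes with trend), with all 4 groups together and Benjamini-Hochberg adjustment over all genes tested. Fold changes on this scale understate those of low genes. With 2 libraries against 2, an exact permutation test cannot reach a two-sided p of 0.05. Percent changes are ratios of mean FPKM. The members and lists were chosen with earlier results of these data known. Per-library values are given for members with unadjusted p under 0.05 in either line or in the difference, for the 10 highest by mean, and for the 5 members added by name. From other lists at most 4 genes with the smallest p in either line are named, plus any with adjusted p under 0.05. The fit was tested on simulated data, with changes larger than most of those reported here and placed in genes with a small replicate spread. Smaller changes were not simulated. Coordinates and sequences were read from GRCh37 with pysam 0.24.0. Alternatives were another pseudocount (0.1), no filter, median scaling, quantile normalization, each line alone, no trend, the replicate number as a block and each library left out.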

Additional observations from a re-analysis of the deposited data

Results flagged for a closer look

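In 5 host genes every eKD2 library lay on one side of both controls in RD-ES and on the opposite side in SK-N-MC, which is 20% of the 25 tested, against 10.2% of all genes tested (1553). The change in SK-N-MC minus the change in RD-ES was 0.82 for SNHG19, 0.41 for SNHG3 and 0.35 for SNHG12, which were lower in RD-ES eKD2 and higher in SK-N-MC eKD2. It was -0.57 for SNHG17 and -0.34 for SNHG20, which ran the other way. None passed in the test of the difference itself (limma adjusted p between 0.19 and 0.31, unadjusted p between 0.0034 and 0.027).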

How the results depend on the processing

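Over the alternatives, 690 of 714 values of the named host genes kept their direction and side of the threshold, 11 lost the call and 13 changed sign. The 11 are ZFAS1 in SK-N-MC, whose count of 1 higher gene became 0 with each line fitted alone, without the trend, with the replicate number as a block and with any library left out (a lone library is then assumed to vary like the other groups). For all 25 tested host genes in every contrast, 1463 of 1550 values kept direction and side of the threshold. Of the others 65 changed sign, 20 lost a call and 2 gained one. Over all genes tested, the deviations of same-numbered libraries hardly correlated (r = 0.056 in RD-ES, and 0.0274 for SK-N-MC). Library 2 nevertheless had the lower host gene share of all FPKM in each group, as in RD-ES eKD2 (0.4805% against 0.5621%). Whether the replicate number marks a pair was not tested beyond this. With the block, 8 host genes instead of 6 were higher at an unadjusted p under 0.05 in SK-N-MC. Among all genes 945 were then higher in place of 867. In RD-ES the 2 genes higher at an unadjusted p became 0 with median scaling, 1 with quantile normalization, 1 with each line alone and 1 without the trend. Among all genes 1288 were higher at first, and 824, 919, 881 and 1315 in these settings, in the same order. The median of the host genes in RD-ES became -0.0577 with median scaling. The 2 genes with a lower difference became 1 with median scaling and 1 with quantile normalization. Among all genes 860 and 1068 then had a lower difference, in place of 1390. The 2 lower genes in SK-N-MC became 1 among genes with a transcript of at least 200 bases, an alternative added after the data were seen. Of the 14381 genes then tested 1081 were lower, in place of 1106 of 15175. LOXHD1 in RD-ES had a log2 fold change of -3.46 with limma adjusted p = 0.059 with the line fitted alone. Median scaling gave -0.0488 for GAS5 and -0.0435 for ZFAS1 in RD-ES and 0.0338 for the difference of SNHG1, and quantile normalization gave 0.0366 for SNHG5 in RD-ES and -0.0385 for SNHG26 in SK-N-MC. With 1 library left out, the higher genes at an unadjusted p numbered 0 to 2 in RD-ES and 3 to 6 in SK-N-MC, the lower ones 1 to 3 in each, and those of the difference 5 to 7 and 1 to 2. The medians were then -0.0228 to 0.0141 in RD-ES. GAS5 ranged from -0.0409 to 0.0879 and SNHG5 from -0.0712 to 0.0442 in RD-ES, SNHG26 from -0.0833 to 0.0952 in SK-N-MC, and the difference of EPB41L4A-AS1 from -0.258 to 0.0774. The cause of these moves was not tested. With 2 libraries a group and unknown read numbers, the 95% confidence interval of the change included 0 for most host genes in each line.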
